A study of Mus musculus with 10 samples.

Results

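Gene expression was compared between retina of mice with oxygen-induced retinopathy (OIR) that had received the inhibitor ISOX DUAL in the vitreous and retina of untreated mice of the same age, postnatal day 17. The comparison takes the 2 arrays titled as OIR with ISOX DUAL and the 2 titled as day 17 control, which are 4 of the 10 arrays of the series. The ISOX DUAL mice breathed 75% oxygen from postnatal day 7 for 5 days, were injected when the hyperoxia ended, and were kept in air until day 17. The untreated mice of day 17 had neither hyperoxia nor an injection. A pair of PBS-injected OIR arrays and a pair of uninjected OIR arrays, both of day 17, are given beside them, and 2 arrays of untreated day 7 retina entered the fit. All groups are whole retina of the strain C57BL/6JJmsSlc and carry no allele by the labels. The dose of ISOX DUAL, the number of animals behind an array and any pooling are not stated in the labels.

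OIR is a model of ischaemic retinopathy. High oxygen stops and prunes the growing retinal vessels of the pup, and after the return to air the underperfused retina becomes hypoxic, stabilises hypoxia-inducible factors (HIF) and grows vessel tufts towards the vitreous. Müller glia, the radial glia that span the retina, become reactive in this state and switch on Gfap and acute phase genes, and retinal ganglion cells, whose axons form the optic nerve, lie at the inner surface next to the vessels. ISOX DUAL is known as a dual inhibitor of the bromodomains of BET proteins and of the coactivators CBP and p300, domains that read acetylated histones. The series was set up to look for transcripts that go up in OIR and come back with the inhibitor, so the comparison asks which transcripts remained away from the untreated level after ISOX DUAL.

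The deposited values are log2 signals of transcript clusters on Affymetrix whole-transcript arrays. A gene was represented by 1 cluster, and 23255 genes passed the filter on low values. Array medians lay between 5.55 and 5.68 and negative control probes had medians of 5.83 to 6.11, so a gene near 6 is close to the background. The number of arrays limits the precision, and the median half-width of a 95% interval was 0.311 log2 (median SE 0.134). Whether both arrays of a group came from different mice is not stated, so the p-values reflect array-to-array spread alone, part or all of which may be technical. The SD over genes of the log2 difference between the arrays of a group was 0.156 in the ISOX DUAL group and 0.341 in the untreated group. The mean signal of 62 small nucleolar RNA genes was 8.55 and 8.44 on the ISOX DUAL arrays, against 7.31 and 8.30 on the untreated arrays, and its part in the results was not tested. Rod markers were well above background on all 4 arrays. Gnat1, the rod transducin subunit, had 13.08 and 13.05 in ISOX DUAL retina and 13.17 and 13.20 in untreated retina.

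In ISOX DUAL retina a glial filament gene and a vasoactive peptide gene were higher than in untreated retina of the same day, and a pair of transcripts was lower. Gfap, which encodes the intermediate filament that Müller glia make in injury, rose by 2.25 log2. Adm, which encodes adrenomedullin, a hypoxia-induced peptide that acts on vessels, rose by 2.06 log2. Spc25, a kinetochore subunit that is also counted among the transcripts of mouse Müller glia, fell. These genes and the predicted gene Gm20026 were the 4 of 23255 that passed the threshold of an adjusted p under 0.05 (0.0172%), 2 of them higher (0.0086%) and 2 lower (0.0086%). At an unadjusted p under 0.05, 921 genes were higher (3.96%) and 1046 lower (4.5%), and 1163 in both directions together is what this level would give with no difference at all. These counts rest on single arrays: without the second untreated array they were 2826 higher and 1679 lower, without the first untreated array 413 and 654, and without the first or the second ISOX DUAL array 375 and 554 or 388 and 440.

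Gfap had log2 signals of 8.18 and 8.67 on the ISOX DUAL arrays, against 6.15 and 6.20 on the untreated arrays. The groups lay far apart, with both untreated arrays only just above the median of their negative controls, so no fold is given. The difference was 2.25 ± 0.18 (SE, n = 2 arrays per group, limma adjusted p = 0.0411). PBS-injected OIR retina had 7.72 and 8.05 and uninjected OIR retina 8.49 and 8.65, so each OIR array was above each untreated array.

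Adm had 7.55 and 7.35 in ISOX DUAL retina and 5.51 and 5.27 in untreated retina. Both untreated arrays were below the median of their negative control probes, so no fold is given and the difference of 2.06 ± 0.19 (limma adjusted p = 0.0477, n = 2) is not an exact size. With PBS the signals were 7.51 and 7.21, close to those with ISOX DUAL, and in uninjected OIR 8.87 and 8.36.

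Spc25 had 6.99 and 6.98 in ISOX DUAL retina, against 8.52 and 8.28 in untreated retina, with no overlap. It fell by 1.42 log2, a 2.67-fold lower signal (SE 0.14, n = 2, limma adjusted p = 0.0477). PBS retina had 7.09 and 7.10 and uninjected OIR retina 6.87 and 6.50. Gm20026, a predicted gene outside the naming rule and chosen after its values were seen, had 5.26 and 5.12 in ISOX DUAL retina and 6.25 and 6.20 in untreated retina (difference -1.04 ± 0.10, limma adjusted p = 0.0477, n = 2), with both ISOX DUAL values below background.

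All these calls were near the threshold and rested on few arrays. Without the second ISOX DUAL array the adjusted p was 0.201 for Gfap, 0.439 for Adm and 0.785 for Spc25, and without the first untreated array 0.313, 0.313 and 0.474. Gfap kept its call without the first ISOX DUAL array (adjusted p = 0.0215), where Adm (0.114) and Spc25 (0.171) lost it. Without either day 7 array, which only feed the estimate of the spread, the adjusted p was 0.108 for Gfap and for Adm and 0.109 for Spc25, and without the second untreated array 0.105 for each. Leaving out a PBS array kept the call of Gfap (0.0483) and ended those of Adm (0.0972) and Spc25 (0.1). Gm20026 lost its call without any of the 10 arrays (adjusted p up to 0.785). The sizes moved less, between 2.00 and 2.50 for Gfap, 1.94 and 2.18 for Adm, and -1.54 and -1.29 for Spc25.

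**Figure D1:**
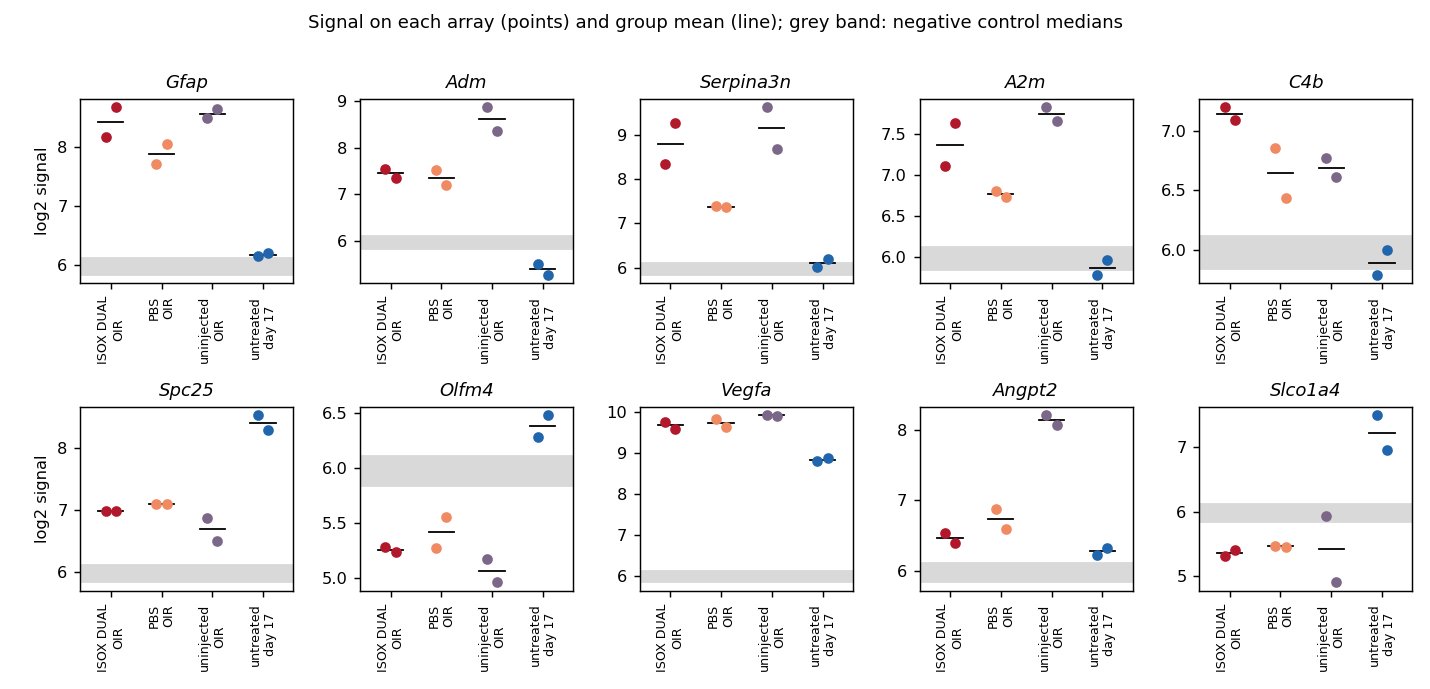
Log2 signal (vertical axis) on each array (points) with the group mean (line) of 10 named genes in ISOX DUAL OIR, PBS OIR, uninjected OIR and untreated day 17 retina, with a grey band for the range of negative control medians. Gfap lies at 8.18 and 8.67 in ISOX DUAL retina and at 6.15 and 6.20 in untreated retina, while Angpt2 lies close to untreated with ISOX DUAL (6.54 and 6.39, against 6.22 and 6.33).

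Of the other genes of smallest p in the upward direction, none passed the threshold. Serpina3n, an acute phase protease inhibitor and a marker of reactive glia, had 8.33 and 9.25 in ISOX DUAL retina, against 6.01 and 6.20 in untreated retina (difference 2.69 ± 0.35, limma adjusted p = 0.115, n = 2). Pcolce, an enhancer of procollagen processing, had 7.70 and 7.69 with ISOX DUAL against 6.38 and 6.59 in untreated retina (difference 1.21 ± 0.13, limma adjusted p = 0.0719, n = 2). The differences of A2m, the protease inhibitor alpha-2-macroglobulin, Myof, the membrane repair protein myoferlin, C4b, a complement component, and Adgrg6, an adhesion receptor, were 1.51, 0.97, 1.26 and 0.95. In all 6 genes both ISOX DUAL arrays lay above both untreated arrays (20.6% of all genes tested), which follows largely from their choice by smallest p.

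In the downward direction the other genes of smallest p were Olfm4, Frmpd4, Ano3, Xlr3a, Atp13a5, Entpd3 and Kcnc2, and none of them passed the threshold. Kcnc2, a fast potassium channel of interneurons, had 6.68 and 6.54 in ISOX DUAL retina, against 7.61 and 7.32 in untreated retina (difference -0.86 ± 0.14, a 1.81-fold lower signal, limma adjusted p = 0.185, n = 2). Ano3, a member of the anoctamin membrane proteins, had 5.63 and 5.34 with ISOX DUAL against 7.14 and 6.69 in untreated retina. Both its ISOX DUAL signals were below the negative control median, as were those of the other 5, so their sizes are not exact. Olfm4, a secreted glycoprotein, had 5.28 and 5.23 with ISOX DUAL and 6.28 and 6.48 in untreated retina, Frmpd4 differed by -0.76 and Entpd3 by -0.55. Xlr3a and Atp13a5 were below background in untreated retina too. The groups did not overlap in any of the 7 (27.6% of all genes in this direction), which follows largely from their choice by smallest p.

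Most targets of HIF had a higher signal in ISOX DUAL than in untreated retina. Of 33 tested targets 30 had a difference above 0, against 47.0% of all genes, and 15 had an unadjusted p under 0.05 in this direction (3.96% of all genes), none in the other. Adm was the 1 target that passed the threshold. The median difference was 0.35 log2, beside -0.01 over all genes, and the medians of PBS and uninjected OIR retina against the same untreated arrays were 0.27 and 0.52. These 3 medians share the untreated arrays, and that of ISOX DUAL was 0.19 without the first of them.

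Vegfa, the main hypoxia-induced vessel growth factor, had 9.77 and 9.60 in ISOX DUAL retina, against 8.81 and 8.88 in untreated retina. The 4 values did not overlap and the difference was 0.84 ± 0.12 (95% interval 0.56 to 1.11, n = 2, 1.79-fold), with a limma adjusted p of 0.144. PBS retina had 9.84 and 9.64 and uninjected OIR retina 9.94 and 9.91, so the ISOX DUAL and PBS values lay among each other. Egln3, a prolyl hydroxylase that marks HIF for destruction and is itself induced by it, had 7.16 and 7.13 with ISOX DUAL and 6.32 and 5.79 in untreated retina, beside 7.02 and 6.66 with PBS and 8.78 and 8.31 in uninjected OIR. Its difference from untreated was 1.09 ± 0.23 (adjusted p = 0.268 by limma, n = 2).

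Ndufa4l2, which lowers mitochondrial respiration in hypoxia, had 8.04 and 7.80 in ISOX DUAL retina, against 6.70 and 6.42 in untreated retina. Pfkfb3, an activator of glycolysis, had 8.22 and 7.94 with ISOX DUAL against 6.93 and 7.19 in untreated retina, and Stc2, the glycoprotein stanniocalcin 2, 6.97 and 6.76 with ISOX DUAL against 5.94 and 6.14 in untreated retina. Their differences were 1.36, 1.02 and 0.82, and the groups did not overlap for any of these 3 genes (20.6% of all genes in this direction). They were named as list members of smallest p, so this follows largely from their choice. Epo, the hormone erythropoietin, differed by 0.67 with both untreated arrays below the background median. None of them passed the threshold (limma adjusted p of 0.185 to 0.317, n = 2). Hmox1, the oxidative stress enzyme haem oxygenase 1, had 6.88 and 7.56 in ISOX DUAL retina, 6.86 and 7.19 in PBS retina, 8.41 and 8.92 in uninjected OIR retina and 6.09 and 6.18 in untreated retina.

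Adm was the HIF target with a call, so the 250 bases before its annotated start are shown as RefSeq gives them (GRCm38.p6, chr7:110627407-110627656, plus strand, 5′ to 3′). Capitals mark the core of the HIF response element, searched as ACGTG or GCGTG on both strands. It occurs at 2 places, the first bases of which lie 90 and 54 bases before the start, and both are on the opposite strand. Of 32851 promoter windows of this length, 38.6% hold at least 1 match, and a match is not a binding site.
Adm: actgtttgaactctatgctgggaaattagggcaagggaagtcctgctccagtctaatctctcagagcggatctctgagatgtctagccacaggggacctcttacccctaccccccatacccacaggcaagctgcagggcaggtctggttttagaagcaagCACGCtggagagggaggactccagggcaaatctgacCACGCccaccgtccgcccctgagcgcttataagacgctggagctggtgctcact

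Vessel growth factors and the genes of endothelial tip cells, the leading cells of a sprout, had slightly positive medians. Among the 23 tested growth factors and receptors 8 were higher and 1 lower at an unadjusted p under 0.05 (3.96% and 4.5% of all genes), and the median difference was 0.18. Among 22 tip cell genes 6 were higher and none lower, with a median of 0.19 (0.10 without the first ISOX DUAL array and 0.11 without the first untreated array), beside 0.25 for PBS and 0.63 for uninjected OIR against the same untreated arrays. Adm, Angpt2, Apln, Kdr, Flt4 and Ramp3 are in both lists, and some other lists described here share members too, so their counts are not separate evidence. Adm was the 1 member of each of these lists past the threshold.

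Angpt2, an antagonist of the vessel-stabilising receptor Tie2 and a tip cell gene, had 6.54 and 6.39 in ISOX DUAL retina and 6.22 and 6.33 in untreated retina. The difference of 0.19 ± 0.13 had a 95% interval of -0.11 to 0.49 (n = 2, limma adjusted p = 0.696). Its signals were 6.88 and 6.60 with PBS and 8.22 and 8.07 in uninjected OIR. The arrays of uninjected OIR stood above all others, and Angpt2 was the 1 gene of 23255 (0.0043%) with an adjusted p under 0.05 between ISOX DUAL and uninjected OIR retina (difference -1.68, limma adjusted p = 0.0339, n = 2). That call was lost when any 1 of the 10 arrays was left out, and the 7 genes that passed without the first ISOX DUAL array were all crystallins.

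Apln, the ligand of the apelin receptor, had 6.41 and 6.18 with ISOX DUAL, 6.72 and 6.31 with PBS, 7.46 and 7.73 in uninjected OIR and 5.00 and 5.31 in untreated retina, where it was below background. Its difference from untreated was 1.14 ± 0.19 (limma adjusted p = 0.185, n = 2). Esm1, a secreted proteoglycan of tip cells, had 5.34 and 5.30 with ISOX DUAL and 5.06 and 5.16 in untreated retina, all below their negative control medians, so its level was not measurable in either group. PBS retina had 5.75 and 5.52 and uninjected OIR retina 6.88 and 6.53, where it stood above the others. Mcam, an adhesion molecule of vessel cells, had 7.81 and 7.46 in ISOX DUAL retina, against 6.64 and 6.78 in untreated retina (difference 0.93 ± 0.22, limma adjusted p = 0.298, n = 2). Kdr, the main VEGF receptor, differed by 0.38 ± 0.13.

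Fgf2, a growth factor that Müller glia and photoreceptors make under stress, had 8.88 and 8.70 in ISOX DUAL retina, against 6.99 and 6.77 in untreated retina. The signal was 3.75-fold higher without overlap (difference 1.91 ± 0.26, limma adjusted p = 0.135, n = 2), and PBS retina had 8.45 and 7.72 and uninjected OIR retina 8.77 and 8.83. Edn2, the vasoconstrictor endothelin 2, a photoreceptor stress signal, had 7.27 and 7.35 with ISOX DUAL against 6.42 and 6.66 in untreated retina (difference 0.77 ± 0.11, limma adjusted p = 0.144, n = 2).

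General endothelial genes had a median difference of -0.02 over 19 tested members, 8 of them above 0. No member passed the threshold, and the 5 members with an unadjusted p under 0.05 were all lower (4.5% of all genes). The median was 0.07 without the second ISOX DUAL array, the 1 of these 4 arrays whose omission turned its sign. Slco1a4, an organic anion transporter of the blood-brain and blood-retina barrier, had 5.31 and 5.40 in ISOX DUAL retina, against 7.51 and 6.96 in untreated retina (difference -1.88 ± 0.33, limma adjusted p = 0.195, n = 2). Both ISOX DUAL signals were below background, as were those of Slco1c1, so these sizes are not exact. Slco1c1, a thyroxine transporter of the same barrier, differed by -1.14 ± 0.24, Ly6c1, a surface protein of brain endothelium, by -0.92 ± 0.22, and Mfsd2a, a lipid transporter needed for the barrier, by -0.39 ± 0.10. PBS and uninjected OIR retina were also below untreated for these 4 genes, with differences of -1.77 and -1.82 for Slco1a4 and -0.27 and -0.63 for Mfsd2a. Pecam1, a general endothelial adhesion molecule, had 7.14 and 6.98 with ISOX DUAL and 6.96 and 6.67 in untreated retina. Its difference was 0.25 (95% interval -0.10 to 0.59), and those of the junction genes Cdh5 and Cldn5 were 0.20 (-0.32 to 0.71) and 0.33 (-0.06 to 0.72). In whole tissue, fewer cells of a type and less RNA per cell cannot be told apart.

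Genes of reactive Müller glia and astrocytes had the highest median difference of all lists outside the crystallins. Of 23 tested members 21 had a difference above 0, beside 47.0% of all genes. At an unadjusted p under 0.05, 16 were higher (3.96% of all genes) and none lower (4.5%). Gfap was the 1 member past the threshold. In 19 members both ISOX DUAL arrays were above both untreated arrays, beside 20.6% of all genes. The median difference was 0.56, between 0.52 and 0.81 when 1 array of the comparison was left out, and the medians of PBS and uninjected OIR retina against the same untreated arrays were 0.22 and 0.99.

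Stat3, the transcription factor of the glial cytokine response, had 8.89 and 8.71 in ISOX DUAL retina, against 7.63 and 7.83 in untreated retina, a 2.1-fold higher signal (difference 1.07 ± 0.15, limma adjusted p = 0.144, n = 2). PBS retina had 8.69 and 8.28 and uninjected OIR retina 9.21 and 9.38. A2m had 7.11 and 7.64 with ISOX DUAL and 5.78 and 5.95 in untreated retina, beside 6.80 and 6.73 with PBS and 7.83 and 7.67 in uninjected OIR. Cebpd, an acute phase transcription factor, had 6.70 and 6.67 with ISOX DUAL and 6.17 and 5.56 in untreated retina (difference 0.82 ± 0.20, limma adjusted p = 0.303, n = 2). Its values in PBS retina were 6.33 and 6.30 and in uninjected OIR retina 7.64 and 7.72, the highest of these groups.

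Set directly against PBS, 20 of the 23 reactive genes were higher with ISOX DUAL, beside 57.0% of all genes, with a median difference of 0.34, and 7 had an unadjusted p under 0.05 upward, beside 0.4% of all genes. None passed the threshold. Serpina3n had 8.33 and 9.25 in ISOX DUAL retina and 7.38 and 7.36 in PBS retina, a difference of 1.42 (95% interval 0.62 to 2.22, n = 2). Gfap differed by 0.54 (0.13 to 0.95), A2m by 0.61 (0.22 to 1.00) and C4b by 0.50 (0.14 to 0.87). Against uninjected OIR the median of the list was -0.34, with 19 of 23 members lower in ISOX DUAL retina, beside 42.6% of all genes.

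**Figure D2:**
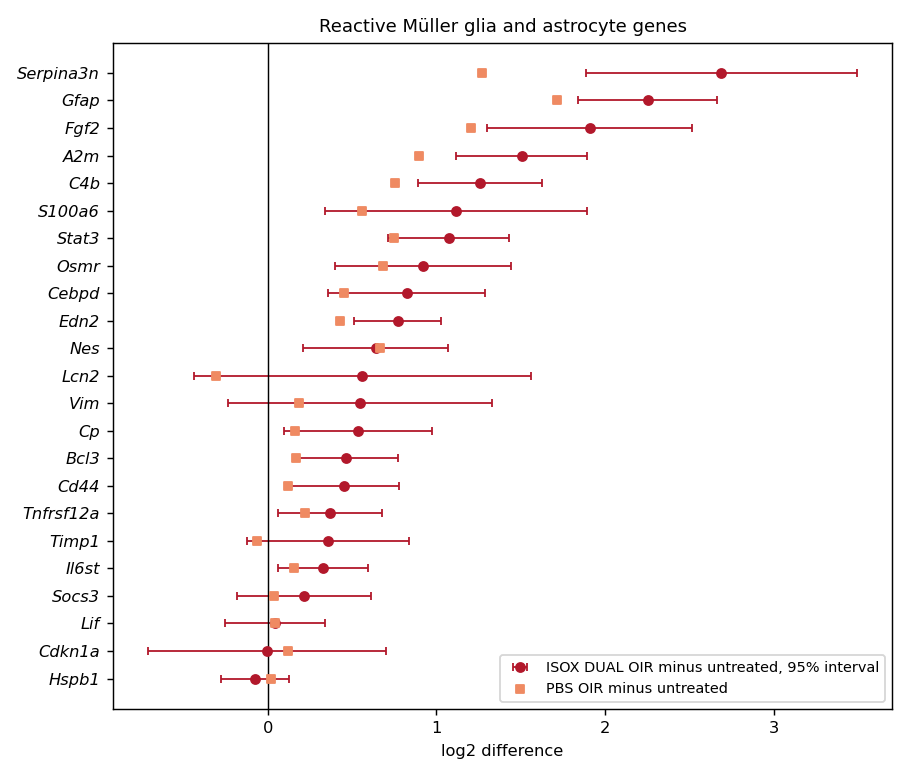
Log2 difference (horizontal axis) of each of the 23 tested reactive Müller glia and astrocyte genes, as ISOX DUAL OIR minus untreated with its 95% interval (circles, n = 2 arrays per group) and PBS OIR minus the same untreated arrays (squares). Serpina3n (2.69) and Gfap (2.25) lie farthest to the right, and the ISOX DUAL circle lies right of the PBS square in 20 of the 23 genes.

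The homeostatic genes of Müller glia had a median difference of -0.25 over 20 members, 6 of them above 0, and 6 were lower and 1 higher at an unadjusted p under 0.05 (4.5% of all genes lower and 3.96% higher). Spc25 was the 1 member past the threshold. Kcnj10, the potassium channel through which Müller glia clear potassium, had 7.21 and 7.12 in ISOX DUAL retina, against 7.61 and 7.61 in untreated retina (difference -0.44 ± 0.12, limma adjusted p = 0.369, n = 2). Abca8a, a lipid transporter, had 8.56 and 8.45 with ISOX DUAL against 9.07 and 8.93 in untreated retina, and Rgr, an opsin of Müller glia and pigment epithelium, 7.07 and 8.08 with ISOX DUAL against 8.94 and 8.82 in untreated retina. Slc1a3, the glutamate transporter GLAST, was the member higher at this level, with 8.18 and 8.24 in ISOX DUAL retina and 7.85 and 7.88 in untreated retina. The median of PBS retina against untreated was also -0.25, and that of uninjected OIR -0.38.

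Complement genes had a positive median difference, and no member passed the threshold. Of 14 tested members 10 had a difference above 0 and 4 below, 7 had an unadjusted p under 0.05 upward (3.96% of all genes) and none downward, and the median was 0.31 (PBS 0.12, uninjected OIR 0.23). C4b had 7.20 and 7.10 in ISOX DUAL retina, 6.86 and 6.43 in PBS retina, 6.78 and 6.61 in uninjected OIR retina and 5.79 and 5.99 in untreated retina, so the ISOX DUAL arrays were the highest. Serping1, the inhibitor of the first complement component, had 7.02 and 7.30 with ISOX DUAL and 6.35 and 6.21 in untreated retina (difference 0.88 ± 0.24, limma adjusted p = 0.357, n = 2). C1qa, which microglia make, had 6.65 and 6.87 with ISOX DUAL against 6.25 and 6.30 in untreated retina.

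Microglia genes had a median difference of 0.13 with 15 of 18 members above 0 (47.0% of all genes) and 6 with an unadjusted p under 0.05, all upward (3.96% of all genes). It was 0.23 without the first ISOX DUAL array. Itgam, the integrin CD11b, had 6.32 and 6.48 in ISOX DUAL retina, against 5.78 and 5.75 in untreated retina, and Csf1r, the survival receptor of these cells, 6.99 and 6.96 with ISOX DUAL against 6.32 and 6.56 in untreated retina (differences 0.63 ± 0.11 and 0.54 ± 0.12, limma adjusted p = 0.191 and 0.285, n = 2). Cx3cr1, the fractalkine receptor, differed by 0.50 ± 0.16. P2ry12, a marker of resting microglia, was below background on all 4 arrays, and Tmem119 differed by 0.08. Interferon response genes had 16 of 19 members above 0 and 6 with an unadjusted p under 0.05 upward, read against the same shares. Their median was 0.16. Leaving out the second ISOX DUAL array gave 0.07 and leaving out the first 0.26, while the omission of an untreated array gave 0.10 or 0.26. Eif2ak2, a kinase activated by double-stranded RNA, had 6.54 and 6.70 with ISOX DUAL and 6.07 and 5.94 in untreated retina, beside 6.86 and 6.58 with PBS and 6.27 and 6.09 in uninjected OIR, so both injected groups lay above the uninjected ones.

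Retinal ganglion cell genes had the lowest median difference of all lists. All 21 tested members had a difference below 0, beside 53.0% of all genes, and 14 were lower at an unadjusted p under 0.05, against 4.5% of all genes, but none passed the threshold. In 17 members both ISOX DUAL arrays lay below both untreated arrays, beside 27.6% of all genes. The median difference was -0.81 log2, beside -0.01 over all genes. It was -0.58 without the second ISOX DUAL array and -0.94 without the first, -0.81 without the first untreated array and -0.77 without the second.

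Nrn1, the neurite growth protein neuritin, had 7.38 and 6.87 in ISOX DUAL retina, against 8.73 and 8.54 in untreated retina. That is a 2.86-fold lower signal, and the difference of -1.51 ± 0.34 did not pass the threshold (limma adjusted p = 0.285, n = 2). PBS retina had 7.16 and 8.10 and uninjected OIR retina 8.41 and 7.99, so the first PBS array lay among the ISOX DUAL values and the second nearer to untreated. Chrna6, a nicotinic receptor subunit, had 8.13 and 7.67 with ISOX DUAL and 8.78 and 9.04 in untreated retina, beside 8.09 and 8.62 with PBS and 8.42 and 8.42 in uninjected OIR (difference from untreated -1.01 ± 0.22, limma adjusted p = 0.268, n = 2). Nefh, the heavy neurofilament subunit, had 7.78 and 7.52 with ISOX DUAL against 8.46 and 8.46 in untreated retina, and Ebf1, a transcription factor of these cells, 7.55 and 7.31 with ISOX DUAL against 8.29 and 8.08 in untreated retina.

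Other markers of the cell type lay on the same side. Nefl, the light neurofilament subunit of large axons, had 9.24 and 8.64 in ISOX DUAL retina, against 10.46 and 10.43 in untreated retina (2.83-fold lower, difference -1.50 ± 0.36, limma adjusted p = 0.299, n = 2). Rbpms, an RNA-binding protein that marks nearly all ganglion cells, had 6.72 and 6.13 with ISOX DUAL and 7.31 and 7.28 in untreated retina, and uninjected OIR retina had 7.53 and 7.18. Pou4f1, a POU transcription factor, had 6.20 and 5.80 with ISOX DUAL against 7.56 and 6.91 in untreated retina, and Thy1, a surface glycoprotein, 7.83 and 7.35 with ISOX DUAL against 8.26 and 8.55 in untreated retina. The second ISOX DUAL array was the lower one in each of these 4 genes. Sncg, gamma-synuclein, chosen here after its values were seen, had the lowest difference of all 23255 genes, -1.90 ± 0.69 (limma adjusted p = 0.508, n = 2), with 8.25 and 8.24 in ISOX DUAL retina, 7.90 and 9.36 in PBS retina, 10.30 and 8.70 in uninjected OIR retina and 10.28 and 10.01 in untreated retina.

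All 21 ganglion cell genes were also lower with ISOX DUAL than with PBS, as were 43.0% of all genes, with a median difference of -0.20, but none had an unadjusted p under 0.05 and the intervals of single genes are wide. For Nrn1 the difference from PBS was -0.51 (95% interval -1.30 to 0.29) and for Nefl -0.43 (-1.26 to 0.41). Against uninjected OIR 19 of 21 were lower, beside 42.6% of all genes, with a median of -0.45 and 11 had an unadjusted p under 0.05 in this direction (2.7% of all genes). The PBS arrays differed from each other in these genes, with list means of 7.26 and 7.82, beside 7.44 and 7.14 on the ISOX DUAL arrays, 7.91 and 7.72 on the uninjected OIR arrays and 8.03 and 8.10 on the untreated arrays. The array with the lowest mean, the second ISOX DUAL array, was also the one with the highest crystallin signals described at the end, and the part of lens RNA in the ganglion cell values was not tested.

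**Figure D3:**
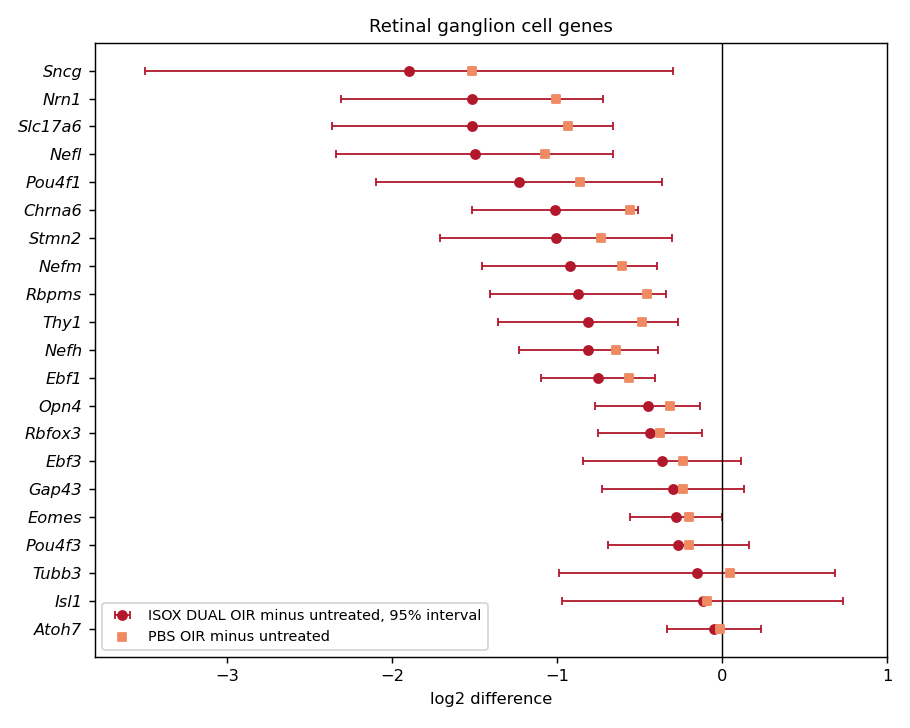
Log2 difference (horizontal axis) of each of the 21 tested retinal ganglion cell genes, as ISOX DUAL OIR minus untreated with its 95% interval (circles, n = 2 arrays per group) and PBS OIR minus the same untreated arrays (squares). All circles lie left of 0, from -1.90 for Sncg to -0.05 for Atoh7, and left of their squares.

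The lists of other neurons had medians nearer to 0. Amacrine cell genes had 2 of 19 members above 0, a median of -0.15 and 5 members lower at an unadjusted p under 0.05. Bipolar cell genes had 4 of 18 above 0, a median of -0.17 and 3 lower, and cone genes 4 of 15 above 0, a median of -0.13, 3 lower and 2 higher. Rod genes had a median of -0.02 with 10 of 22 above 0. No member of these 4 lists passed the threshold. Of all genes 47.0% were above 0, and 4.5% were lower and 3.96% higher at an unadjusted p under 0.05. The medians moved with the untreated arrays: without the first they were -0.36 for bipolar, -0.20 for amacrine and -0.09 for rod genes, and without the second -0.06, -0.03 and 0.09. Calb2, the calcium-binding protein calretinin of amacrine and ganglion cells, had 9.33 and 9.02 in ISOX DUAL retina, against 10.32 and 10.23 in untreated retina (difference -1.10 ± 0.34, limma adjusted p = 0.435, n = 2). Tacr3, a tachykinin receptor of bipolar cells, had 7.49 and 7.42 with ISOX DUAL and 8.36 and 8.09 in untreated retina, with 7.46 and 7.37 in PBS retina and 7.52 and 7.44 in uninjected OIR retina, so the OIR groups lay together. Opn1mw, the green cone opsin, had 10.32 and 10.40 with ISOX DUAL against 11.37 and 10.91 in untreated retina, and Gnb3, a cone transducin subunit, 10.25 and 10.38 with ISOX DUAL against 9.58 and 9.89 in untreated retina.

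Retinal pigment epithelium genes, whose cells lie outside the neural retina and can come with it in dissection, had 1 of 18 members above 0, a median of -0.34 and 7 members lower at an unadjusted p under 0.05 (4.5% of all genes). Rpe65, the visual cycle isomerase, had 5.46 and 6.41 in ISOX DUAL retina, against 7.71 and 6.57 in untreated retina, where the first array stood apart, and Best1 was below background on all 4 arrays. Rdh5, a retinol dehydrogenase, had 6.31 and 6.65 with ISOX DUAL against 7.19 and 7.05 in untreated retina (difference -0.64 ± 0.18, limma adjusted p = 0.394, n = 2). The medians of PBS and uninjected OIR retina were -0.25 and -0.24. How much pigment epithelium each sample held was not tested.

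Cholesterol synthesis genes had 2 of 15 members above 0, a median of -0.26 and 5 members lower at an unadjusted p under 0.05 (4.5% of all genes), with no call. The median was -0.41 without the first ISOX DUAL array. Idi1, the isomerase of isoprenoid synthesis, had 6.11 and 6.20 in ISOX DUAL retina, against 7.51 and 6.87 in untreated retina, and Fdft1, squalene synthase, 7.68 and 7.50 with ISOX DUAL against 8.51 and 8.14 in untreated retina (differences -1.03 ± 0.28 and -0.74 ± 0.22, limma adjusted p = 0.357 and 0.406, n = 2). PBS retina had 6.08 and 6.54 for Idi1, so these OIR groups overlapped. Extracellular matrix genes had 18 of 22 members above 0, a median of 0.23 (0.14 without the first untreated array), and 7 higher and 1 lower at an unadjusted p under 0.05 (3.96% and 4.5% of all genes). Fn1, fibronectin, had 9.36 and 9.20 in ISOX DUAL retina, 9.43 and 8.96 in PBS retina, 10.23 and 10.24 in uninjected OIR retina and 8.21 and 8.24 in untreated retina. Its difference of 1.06 ± 0.15 from untreated was 2.08-fold (limma adjusted p = 0.144, n = 2). Nid1, a basement membrane protein, had 7.64 and 7.84 with ISOX DUAL against 6.97 and 6.78 in untreated retina.

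**Figure D4:**
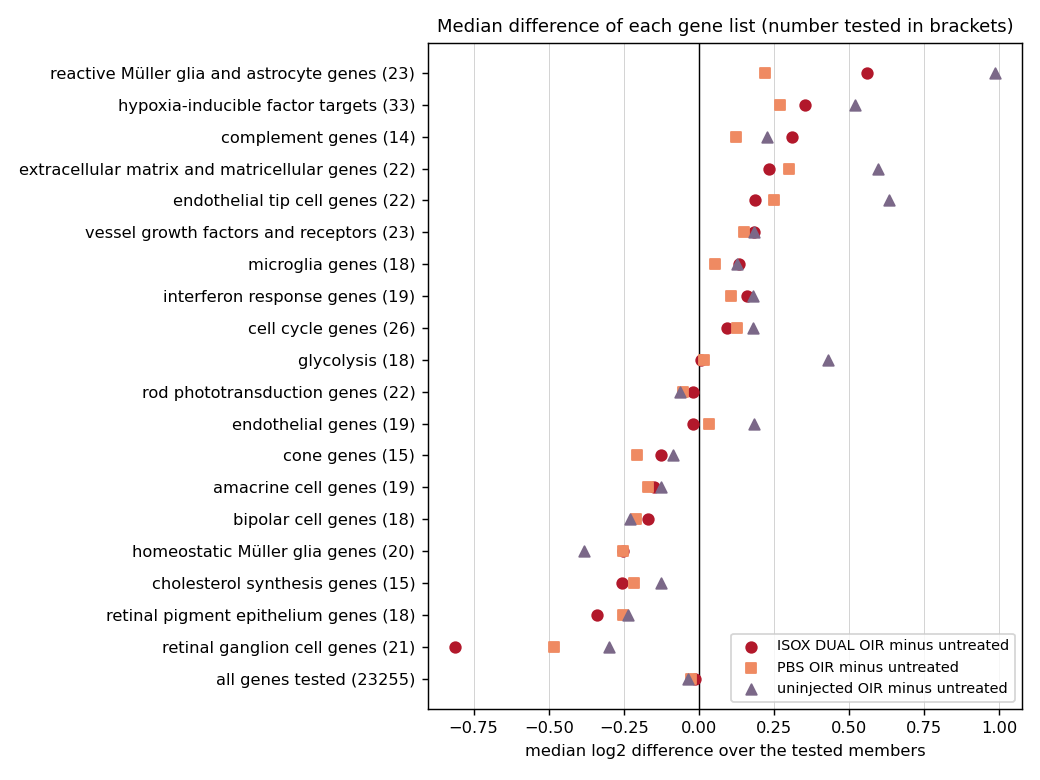
Median log2 difference (horizontal axis) over the tested members of 19 gene lists and over all genes tested, for ISOX DUAL OIR (circles), PBS OIR (squares) and uninjected OIR (triangles), each minus the same 2 untreated arrays. With ISOX DUAL the medians run from 0.56 for reactive Müller glia and astrocyte genes to -0.81 for retinal ganglion cell genes.

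No gene of the inhibitor's own target class passed the threshold. Bromodomain proteins had 14 of 26 members above 0 and a median of 0.02 (0.10 without the first untreated array and 0.01 without the second). Brd2, a BET protein, had 8.41 and 8.35 in ISOX DUAL retina, against 7.88 and 8.27 in untreated retina (difference 0.30, 95% interval -0.07 to 0.68, n = 2). Crebbp, which encodes CBP, differed by -0.15 (-0.61 to 0.32) and Ep300, which encodes p300, by -0.34 (-1.14 to 0.47). Baz2a, a bromodomain subunit of a nucleolar remodelling complex, differed by 0.50 ± 0.10 with a limma adjusted p of 0.265 (n = 2). Of genes known to respond to bromodomain inhibitors in other cells, 5 of 14 had a difference above 0 and the median was -0.07 (-0.13 without the first untreated array and -0.02 without the second). The list mixes genes that such inhibitors raise with genes that they lower, so its count and median do not measure a response. Hexim1, which inhibits the elongation factor P-TEFb and goes up with BET inhibitors in many cell lines, had 7.77 and 7.91 in ISOX DUAL retina, 7.89 and 7.82 in PBS retina and 7.95 and 8.13 in untreated retina. Myc, a proto-oncogene that BET inhibitors lower in many tumour lines, was below background on all ISOX DUAL and untreated arrays. Ccnd2, cyclin D2, had 6.78 and 7.02 with ISOX DUAL and 6.34 and 6.10 in untreated retina (difference 0.68 ± 0.12, limma adjusted p = 0.195, n = 2).

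No gene passed the threshold between ISOX DUAL and PBS retina (0.0%), which compares injection of the inhibitor with injection of PBS. At an unadjusted p under 0.05 there were 237 genes (93 higher, 0.4%, and 144 lower, 0.619%). This level would give 1163 with no difference at all. The fit shared 1 spread over all groups. The SD over genes of the log2 difference between arrays was 0.156 with ISOX DUAL, 0.223 with PBS and 0.3255 to 0.395 in the other groups. With only the arrays compared in the fit, the count was 710. The part of the shared spread in these counts was not tested. No gene passed under any alternative that kept both ISOX DUAL and both PBS arrays. A miss of the threshold does not show that the groups were alike. The named gene of smallest p was Optc, opticin, a vitreous proteoglycan made by the ciliary epithelium, with 6.98 and 7.63 in ISOX DUAL retina, against 8.17 and 8.63 in PBS retina (difference -1.10, 95% interval -1.71 to -0.48, n = 2). Its untreated signals were 8.34 and 7.93 and those of uninjected OIR 8.64 and 8.26, so the ISOX DUAL arrays were the lowest of these 8. Serpina3n, given above, came next, and then Pcolce with 7.70 and 7.69 against 7.27 and 7.09 in PBS retina (difference 0.52, 95% interval 0.21 to 0.82). Optc is 1 of 11 tested vitreous and ciliary body genes. Of this list 10 members had a negative difference from PBS, beside 43.0% of all genes, with a median of -0.125. At an unadjusted p under 0.05, 3 of them went down (0.619% of all genes) and none up. The list's median difference from untreated retina was -0.062 with ISOX DUAL and 0.187 with PBS. How much ciliary or vitreous tissue each sample held was not tested. Against the same untreated arrays, PBS retina had 0 genes past the threshold (0.0%, with 2126 at an unadjusted p under 0.05) and uninjected OIR retina 115 (0.495%). The second count rested on single arrays, with 0 genes without the second untreated array, 3 without the first, 6 or 35 without an uninjected OIR array, 23 without an ISOX DUAL array and 54 without a PBS array, and array weights gave 12. The first was 2 (Adm and Gfap) with the replicate number as a block and 3 (these and Spc25) with protein-coding genes only, so no order of the groups is read from these counts.

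Crystallins, the structural proteins of the lens that some retinal cells also make under stress, are given apart. Of the 16 alpha, beta and gamma crystallin genes tested 15 had a higher signal in ISOX DUAL than in untreated retina, with a median difference of 1.10 log2. In 14 of them both ISOX DUAL arrays lay above both untreated arrays (20.6% of all genes), and 11 had an unadjusted p under 0.05 upward (3.96% of all genes). None passed the threshold with all arrays. The values rested largely on the second ISOX DUAL array. The median of the alpha and beta crystallins was 1.04, and it was 0.22 without that array, and 1.86 without the first. For the gamma crystallins it was 1.19, with 0.74 and 1.64 in these settings.

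Cryaa, alpha-A crystallin, a lens chaperone, had 8.05 and 11.75 in ISOX DUAL retina, against 6.48 and 7.11 in untreated retina. The first ISOX DUAL array was above both untreated arrays and the second far above all others, with a difference of 3.11 ± 1.00 (limma adjusted p = 0.457, n = 2). PBS retina had 7.30 and 8.34 and uninjected OIR retina 6.52 and 6.87. Cryba1, a beta crystallin, had 6.98 and 10.58 with ISOX DUAL and 5.11 and 5.92 in untreated retina, beside 6.22 and 6.76 with PBS (difference from untreated 3.26 ± 0.96, limma adjusted p = 0.406, n = 2). Crybb1 had 7.53 and 9.65 with ISOX DUAL against 6.93 and 7.08 in untreated retina and Crybb2 6.15 and 7.31 with ISOX DUAL against 5.98 and 6.08 in untreated retina. Cryba4, Cryba2 and Crybb3 differed by 0.99, 1.09 and 0.62. Cryab, alpha-B crystallin, a stress chaperone that the retina itself makes, was the exception, with 7.47 and 7.89 in ISOX DUAL retina and 7.92 and 7.73 in untreated retina (difference -0.15 ± 0.27).

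Among the gamma crystallins Crygb had 7.22 and 8.69 in ISOX DUAL retina, against 5.12 and 5.78 in untreated retina, where it was below background, and 6.50 and 6.51 in PBS retina. Crygs had 5.32 and 8.45 with ISOX DUAL and 4.26 and 4.86 in untreated retina, so that only the second ISOX DUAL array was above background. Cryga had 7.29 and 7.93 with ISOX DUAL against 6.41 and 6.59 in untreated retina (2.15-fold, difference 1.11 ± 0.24, limma adjusted p = 0.278, n = 2). Crygc, Crygf, Crygd, Cryge and Crygn differed by 1.41, 1.28, 0.77, 0.67 and 0.15. Cryga to Crygf are close copies of each other on chromosome 1, so signal may be shared among their clusters and they do not count as separate measurements. Without the first ISOX DUAL array Cryba1, Crybb1 and Crygc passed the threshold, 3 of the 6 genes called in that setting.

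Set against PBS, all 16 crystallins were higher with ISOX DUAL (median 0.94, and 57.0% of all genes higher), and 10 had an unadjusted p under 0.05 (0.4% of all genes), with no call. Cryge differed by 0.51 (95% interval 0.20 to 0.83), Cryga by 0.86 (0.30 to 1.43), Crygb by 1.46 (0.41 to 2.51) and Cryaa by 2.08 (-0.24 to 4.41). Against untreated retina PBS retina had median differences of 0.24 for the gamma and 0.08 for the alpha and beta crystallins, and uninjected OIR retina -0.17 and -0.11.

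Other lens genes had 7 of 10 tested members above 0 (47.0% of all genes). The median was 0.15 (0.02 without the second ISOX DUAL array and 0.27 without the first). At an unadjusted p under 0.05, 1 member was higher (3.96% of all genes) and none lower. The mean signal of the list was 5.80 and 6.15 on the ISOX DUAL arrays, against 5.76 and 5.83 on the untreated arrays. Mip, the water channel of lens fibres, had 6.36 and 7.59 in ISOX DUAL retina, against 6.14 and 6.21 in untreated retina, and Bfsp1, the lens filament protein filensin, 5.58 and 6.21 with ISOX DUAL against 5.50 and 5.44 in untreated retina, so the second ISOX DUAL array was again the highest. Lim2, a lens membrane protein, was below background on all 4 arrays. The part of lens tissue in the crystallin values was not tested.

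The promoters of 3 gamma crystallins whose signals were high together on the second ISOX DUAL array are shown, as the 250 bases before the annotated start in RefSeq (GRCm38.p6, 5′ to 3′). Capitals mark the motif TATATA, the same on both strands, and overlapping matches are counted apart. It lies 30 and 28 bases before the start of Crygb (chr1:65082291-65082540, minus strand) and 29 bases before that of Crygc (chr1:65073533-65073782, minus strand), and no match lies in the window of Crygs (chr16:22811411-22811660, minus strand). It was found in 7 of the 8 gamma crystallin windows and in 5.25% of 32851 windows in all, which describes the sequence only.
Crygb: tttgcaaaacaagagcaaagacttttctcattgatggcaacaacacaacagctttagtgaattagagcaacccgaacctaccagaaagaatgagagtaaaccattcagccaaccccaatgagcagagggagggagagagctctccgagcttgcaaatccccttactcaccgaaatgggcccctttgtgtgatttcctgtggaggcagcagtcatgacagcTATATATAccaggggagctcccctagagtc
Crygc: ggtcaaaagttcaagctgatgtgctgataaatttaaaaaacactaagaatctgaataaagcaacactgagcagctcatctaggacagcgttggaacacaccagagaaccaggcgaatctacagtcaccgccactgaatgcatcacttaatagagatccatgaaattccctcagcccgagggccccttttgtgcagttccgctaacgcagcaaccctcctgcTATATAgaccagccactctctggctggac
Crygs: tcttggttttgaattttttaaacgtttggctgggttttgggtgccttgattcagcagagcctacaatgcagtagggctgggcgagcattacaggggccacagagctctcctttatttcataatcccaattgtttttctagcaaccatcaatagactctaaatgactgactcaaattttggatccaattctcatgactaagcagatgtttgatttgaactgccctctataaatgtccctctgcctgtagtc

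**Figure D5:**
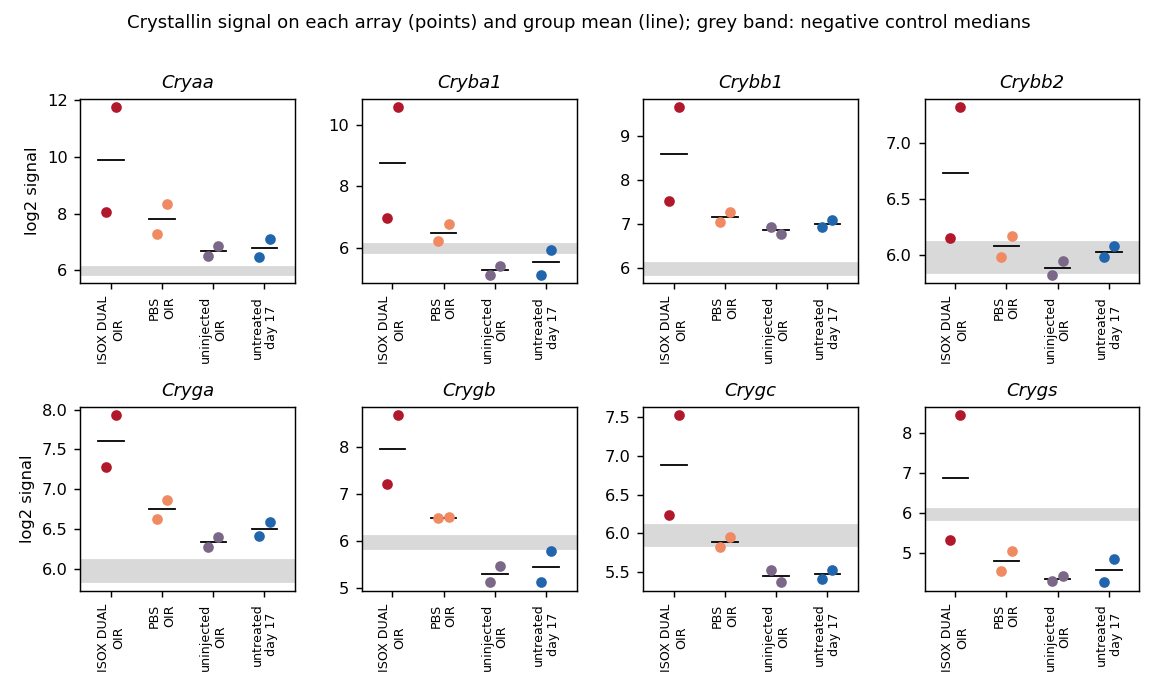
Log2 signal (vertical axis) on each array (points) with the group mean (line) of 8 crystallin genes in ISOX DUAL OIR, PBS OIR, uninjected OIR and untreated day 17 retina, with a grey band for the range of negative control medians. The second ISOX DUAL array is the highest in all 8 genes (11.75 for Cryaa, against 8.05 on the first), and the untreated arrays lie at 7.11 or lower.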

How the data were processed

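Whole retina RNA was extracted with Trizol and labelled with the WT Terminal Labeling Kit (Affymetrix), per the labels' protocols. The deposited values are log2 signals per transcript cluster from the authors' series matrix. For their background correction, normalization and summarization, the method is not given in the sources used here. Of 65956 transcript clusters, 30604 have 1 gene symbol in the platform annotation, 2146 have several and 33206 have none, and the last 2 kinds were left out. Symbols were updated by gene identifier or synonym, and of several clusters of a gene the one with the highest mean was kept. The filter on low values asked for 2 or more arrays on which a gene exceeded that array's 30th percentile. No fold is given where the lower group lies below the negative control median on both arrays. Gfap, whose untreated arrays were only just above that median, was also given without a fold.

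A linear model (limma 3.58.1 under R 4.3.3, with eBayes) was fitted over all 10 arrays in 5 groups of 2, with 5 residual and 2.758 prior degrees of freedom, and p-values were adjusted over 23255 genes by Benjamini-Hochberg. Errors are SE. With 2 arrays against 2 an exact permutation test cannot go below p = 0.333. The fit was tested on simulated data for the comparison with untreated retina, where 0.0% of 200 genes changed 1.5-fold, 65.0% of those changed 2-fold and 93.5% of those changed 4-fold passed the threshold, among 23255 genes. The false calls were 0, 10 and 10. Simulated errors were drawn independently for each gene and array, with the same spread in all groups. Deviations shared across genes, as seen between the real arrays, were not simulated, so these shares may not hold for the real arrays.

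Genes named are the 8 of smallest p in each direction without predicted genes, small RNA genes and crystallins, up to 4 of smallest p from each list described, all crystallins, a fixed set, cell type markers, and up to 5 of smallest p between ISOX DUAL and PBS. The comparison, its members and the lists were chosen with earlier results of these data known. Replicate numbers are not stated to pair arrays. Alternatives were quantile normalization, other filters, only the arrays compared, a variance trend, array weights, all clusters, a replicate block and leaving out each array.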

Additional observations from a re-analysis of the deposited data

How the results depend on the processing

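The comparison of ISOX DUAL with untreated retina called 4 genes, 2 higher and 2 lower. It called 2 (2 higher, 0 lower) after quantile normalization, 4 without a filter, 1 (1 higher, 0 lower) with a filter of at least 4 arrays above the array's median or with every cluster tested, 0 with only the arrays compared or with array weights, and 9 (5 higher, 4 lower) with a mean-variance trend. Leaving out 1 array gave 0 to 6 calls, 0 to 6 higher and 0 to 1 lower. The replicate block gave 2 calls (2 higher, 0 lower), Gfap and Adm. The labels do not say that the numbers pair arrays, and the deviations of same-numbered arrays correlated at -0.148 between the ISOX DUAL and untreated groups and 0.399 between ISOX DUAL and PBS. They correlated at 0.587, 0.583 and 0.809 among the untreated day 17, uninjected OIR and day 7 groups, and from -0.406 to -0.0567 between the injected and the other groups. With the numbers of the injected groups crossed, an alternative chosen after seeing the data, 53 genes were called (31 higher, 22 lower), and 43 between PBS and untreated retina. Testing protein-coding genes only, also chosen after seeing the data, gave 11 calls (7 higher, 4 lower). Crystallin calls were 0, and 0 to 3 with 1 array left out. ISOX DUAL against PBS gave 0 calls, and 0 to 1 with 1 array left out. ISOX DUAL against uninjected OIR gave 1 call, 0 with only the arrays compared, 3 with array weights, 5 with crossed numbers and 0 to 7 with 1 array left out. Gfap was called in 13 of 20 alternatives, Adm in 8, Spc25 in 6 and Gm20026 in 3 of 18. None of the named genes changed direction while called. The causes were not tested, apart from fewer arrays or genes entering a fit. With 2 arrays per group, changes of 1.5-fold were not detectable in simulated data, and genes below the negative control median have no measured fold.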

Other observations

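Glycolysis genes, many of which HIF induces, had 9 of 18 members above 0 against untreated retina and a median difference of 0.01. That median averages unlike untreated arrays, whose means over the list were 9.31 and 9.79 (9.70 and 9.61 with ISOX DUAL), and was -0.12 without the first untreated array and 0.32 without the second. All 18 were lower than in uninjected OIR retina, beside 42.6% of all genes, with a median of -0.27, and none passed the threshold. Immediate-early genes had 13 of 24 members above 0 and a median of 0.05 against untreated retina (-0.05 without the first untreated array and 0.21 without the second), while 20 of 24 were lower than in uninjected OIR retina with a median of -0.38. Egr1, an immediate-early transcription factor, had 7.69 and 7.91 in ISOX DUAL retina, 7.76 and 7.79 in PBS retina, 9.07 and 8.79 in uninjected OIR retina and 8.34 and 9.04 in untreated retina, so both injected groups lay below the others. Pericyte and smooth muscle genes had 8 of 15 members above 0 against untreated retina, and all 15 were lower than in uninjected OIR retina.

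Cell cycle genes had 21 of 26 members above 0 against untreated retina, a median of 0.09 (0.15 without the second untreated array) and no call. Mki67, a marker of dividing cells, had 6.32 and 6.22 in ISOX DUAL retina, 6.61 and 6.07 in PBS retina, 6.77 and 6.54 in uninjected OIR retina and 5.14 and 4.49 in untreated retina, where it was below background. Its difference from untreated was 1.45 ± 0.30 (limma adjusted p = 0.265, n = 2). Macrophage and activated phagocyte genes had 6 of 11 members above 0 (47.0% of all genes) and a median of 0.04. At an unadjusted p under 0.05, 1 was higher (3.96% of all genes) and 2 were lower (4.5%). PBS and uninjected OIR retina each also had 2 members lower against untreated retina, and 1 and 3 higher. Within this list Ly6c2, a surface protein of inflammatory monocytes, differed from untreated retina by -1.58 log2. Lyve1, a receptor of tissue macrophages and lymphatic endothelium, had 7.04 and 7.11 with ISOX DUAL against 8.17 and 7.56 in untreated retina. Neither passed the threshold.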
